A study of Mus musculus with 2 samples.

Results

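The 7 genes described here encode the MHC class II antigen presentation machinery and were taken by symbol, H2-Aa, H2-Ab1, H2-Eb1, Cd74, H2-DMa, H2-DMb1 and Ciita, from the 32285 genes listed for both libraries. All 7 were detected in each library. They were followed by day and by cell type in a sort of donor T cells, with UMIs that lay 1 by 1 over many cells described apart from cells that carried many.

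In the fully allogeneic model, lethally irradiated BALB/c recipients (H-2d) received T cell-depleted bone marrow and splenic T cells, both from C57BL/6 mice (H-2b), and no other treatment is given for either library. The labels of the libraries give 200000 naive T cells per mouse, and a supplementary figure legend of the study gives the same number of T cells. A main figure legend gives another number for this experiment, so the dose is uncertain. TCRβ+ cells of donor type, H2Kb+ and H2Kd- within CD45+ cells, were taken from pooled spleens by sorting at day +7 or day +14, and each day gave 1 scRNA-seq library, so the day and the library cannot be told apart. The protocol attached to both libraries names day +7 alone, and the day used here is that of the library title. Marrow-derived cells of the graft carry the same H-2b molecules as the donor T cells, so the MHC markers of the sort did not separate the 2 grafts.

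MHC class II molecules carry peptides from endocytosed proteins to the surface, where CD4+ T cells recognize them. The classical molecules I-A and I-E are pairs of an α and a β chain. H2-Aa and H2-Ab1 encode the I-A pair and H2-Eb1 the I-E β chain. The invariant chain, Cd74, escorts new pairs through the cell and blocks their groove, and the H2-DM heterodimer, made from H2-DMa and H2-DMb1, helps to exchange its last fragment for a peptide. Ciita is the coactivator that turns the whole set on. Dendritic cells, macrophages and B cells carry class II as a rule, whereas mouse T cells are known for little or none of it.

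Ciita does not bind DNA itself but is recruited to factors on conserved boxes ahead of class II genes, among them RFX on the X box and NF-Y on the Y box. RefSeq promoter windows (GRCm38.p6, 250 bases before to 50 after the start) matched 4 of the 7 members. They were searched, on the strand of the gene alone, for GNAAC, a core of the X box, followed by GATTGG, a core of the Y box. With 25 to 35 bases from start to start, the pair was found in the windows of H2-Aa, H2-Eb1 and H2-DMb1. It was in neither of the windows of H2-DMa. Of all 32851 windows of that length, searched on both strands, 0.651% held the pair, against 16.1% with GATTGG alone and 84.8% with GNAAC alone. The pair was also in the windows of 3 of the 4 further class II genes matched, H2-Eb2, H2-Oa and H2-Ob. In the 6 windows that held it, the spacing was 29 to 32 bases. The stretches from 100 to 26 bases before the start are shown for the members with the pair and for the first H2-DMa window. Capitals mark the 2 motifs, and all are on mouse chromosome 17.
H2-Aa (chr17:34287849-34287923, minus strand): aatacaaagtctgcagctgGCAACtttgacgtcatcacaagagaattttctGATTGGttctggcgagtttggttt
H2-Eb1 (chr17:34305767-34305841, plus strand): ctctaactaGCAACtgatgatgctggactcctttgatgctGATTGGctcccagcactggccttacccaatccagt
H2-DMb1 (chr17:34153091-34153165, plus strand): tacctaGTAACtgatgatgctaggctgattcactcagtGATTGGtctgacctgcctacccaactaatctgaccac
H2-DMa, first window (chr17:34122732-34122806, plus strand): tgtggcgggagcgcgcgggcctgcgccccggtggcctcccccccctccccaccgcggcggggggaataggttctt
A match in these letters is not a bound site, and H2-DMa lacks the pair in these windows and on this strand only. Both H2-DMa windows, from positions 34122582 and 34125268, lie inside its annotated span, which begins at 34119541. Other starts of H2-DMa were not examined.

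Of the 7 genes, 5 lie in the H2 complex on chromosome 17 between positions 34119541 and 34316674 (GRCm38), with Cd74 on chromosome 18 at 60803848 to 60812652 and Ciita on chromosome 16 at 10480059 to 10528418. H2-DMa overlaps Brd2, and Ciita overlaps Dexi, on the opposite strand. H2-DMb1 and its neighbor H2-DMb2 are near copies, and 22.7% of the 50-base stretches of H2-DMb1 transcripts also occur in H2-DMb2, so some reads could not be assigned to either. The gene of the α chain of I-E, H2-Ea, is annotated as a polymorphic pseudogene in GRCm38 and is not among the genes counted. Whether any cell could form I-E therefore cannot be read from H2-Eb1. The counts do not separate H-2b from H-2d alleles.

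The kept cells numbered 7179 at day +7 and 7794 at day +14, with 86745047 and 83808218 UMIs and median depths of 9210 and 8144 UMIs per cell. A T cell receptor complex transcript was found in 98.4% and 99.02% of them. The libraries shared 17 kept cell barcodes. Cells were placed in gates by marker UMIs, and the CD8 gate held 5848 and 5911 cells, the CD4 gate 471 and 704, the C1q-bearing gate (macrophage complement genes C1qa, C1qb and C1qc) 178 and 134, and the erythroid gate (erythroid genes such as Car1, Car2 and Klf1) 119 and 21. The rest had both coreceptors or neither, neutrophil-lineage transcripts, or none of these markers. With 1 library per day no test was possible, "2-fold" marks a size and not a test, and brackets give 95% intervals that cover counting error only.

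Over all kept cells the 7 genes together gave 8255 UMIs at day +7 and 13126 at day +14, or 95.2 [93.1, 97.2] and 157 [154, 159] per 1000000 UMIs (CPM). The log2 ratio of day +14 over day +7 was 0.72 [0.68, 0.76]. Cd74 gave most UMIs on both days, 30.04 CPM [28.9, 31.2] and then 62.4 CPM [60.7, 64.1]. Of the chains, H2-Ab1 went from 19.1 to 24.0 CPM, H2-Eb1 from 13.4 to 22.7 CPM and H2-Aa from 10.7 to 20.5 CPM. H2-DMa was at 19.1 and 23.8 CPM, while its partner H2-DMb1 was at 2.32 and 2.30 CPM, with a log2 ratio of -0.01 [-0.30, 0.28]. Ciita gave 50 and 83 UMIs in all. In all, 5 members had a mean of at least 10 CPM, and 1 of these 5, Cd74, was 2-fold or more higher at day +14, where 2.11% of the 6919 genes over that minimum were. None was 2-fold or more lower, where 1.39% of genes were. The median log2 ratio of the 5 was 0.76 and that of the 6919 genes was 0.18. Scaled to the median gene, which lay 0.21 higher at day +14 on the log2 scale, Cd74 had 0.85 and no longer passed 2-fold, and H2-Ab1 and H2-DMa had 0.12 and 0.11. Without C1q-bearing, erythroid and neutrophil-lineage cells, the log2 ratio of the sum was 1.46 and that of H2-DMb1 1.30.

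These totals mixed cell types with very unequal levels. Summed over the 7 genes, the CD8 gate held 29.9 CPM [28.6, 31.2] and, at day +14, 82.8 CPM [80.6, 85.1], and the CD4 gate 63.7 CPM [56.8, 71.2] and 127 CPM [117, 137]. The C1q-bearing gate reached 608 CPM [581, 637] and 1395 CPM [1345, 1446]. The erythroid gate, of a lineage not among the usual class II-bearing cells, held 725 CPM [699, 753] at day +7, above the 608 CPM of the C1q-bearing gate, but 376 CPM [286, 484] in the later one. Cells with none of the gate markers held 7705 and 13684 CPM on only 29 and 48 cells. Of these 4 marker gates, CD8 was thus lowest and CD4 next on both days. The order of the C1q-bearing and erythroid gates at day +7 depended on the processing: it turned when cells were thinned to 4000 UMIs, with 933 CPM for C1q-bearing and 690 CPM for erythroid cells, without the 5% of cells with most UMIs, with 873 and 779 CPM, with a C1q limit of 10 UMIs, with 1636 and 669 CPM, and without barcodes that also held T cell transcripts, with 4823 and 798 CPM. At day +14 the erythroid gate lay below the C1q-bearing gate.

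**Figure D1:**
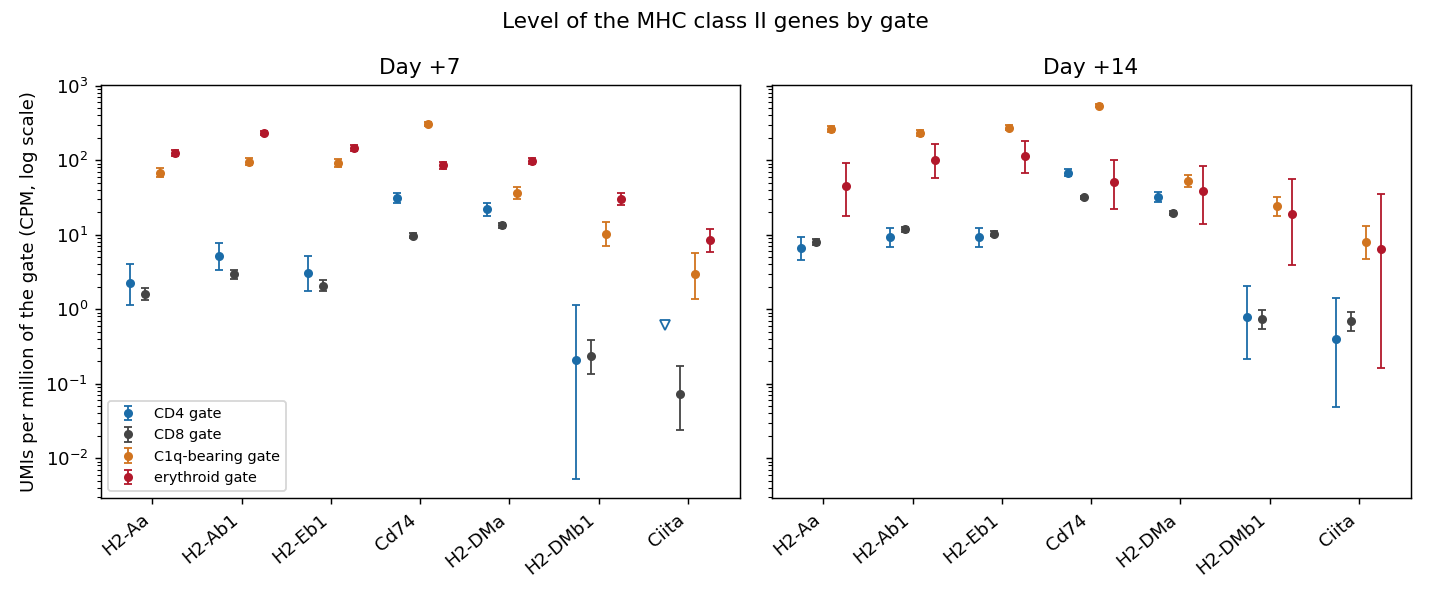
The level of each of the 7 genes in CPM on a log axis, in the CD4, CD8, C1q-bearing and erythroid gates of the day +7 (left) and day +14 (right) library; points are the level, bars the 95% Poisson interval, and the open triangle the level that 3 counts would give for Ciita in the CD4 gate, which had 0 UMIs at day +7. At day +7 the erythroid points lie above the C1q-bearing points for every gene except Cd74.

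The classical chains were rare in the CD8 gate at day +7. H2-Aa was at 1.60 CPM [1.31, 1.93], H2-Ab1 at 2.95 CPM [2.56, 3.39] and H2-Eb1 at 2.07 CPM [1.74, 2.44], with a UMI in 1.03%, 1.92% and 1.33% of the 5848 cells. At day +14 they were at 7.92, 11.8 and 10.3 CPM, and their log2 ratios were 2.31 [2.01, 2.62], 1.995 [1.77, 2.23] and 2.32 [2.05, 2.59]. The folds were thus 4.95, 3.99 and 4.98. In the CD4 gate the chains lay between 2.27 and 5.17 CPM, and a week later between 6.55 and 9.32 CPM. The CD4 over CD8 intervals included 0 for all 3 chains at day +14 and for H2-Aa and H2-Eb1 at day +7, when H2-Ab1 was higher in the CD4 gate by a log2 ratio of 0.81 [0.15, 1.41]. That H2-Ab1 value rested on 25 UMIs in 12 CD4-gate cells, and 1 of the cells held 10 of them. In cells with fewer than 20 class II UMIs at day +7, H2-Ab1 was at 2.71 CPM in the CD4 gate and 1.99 CPM in the CD8 gate.

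Cd74 separated the 2 T cell gates. At day +7 the CD8 gate held 9.62 CPM [8.90, 10.4] and the CD4 gate 31.0 CPM [26.2, 36.4], and at day +14 they held 31.8 CPM [30.4, 33.2] and 68.0 CPM [61.0, 75.6]. The log2 ratio of CD4 over CD8 was 1.69 [1.42, 1.95] at day +7 and 1.10 [0.93, 1.26] at day +14. Of the members with a mean of at least 10 CPM in that comparison, 1 of 2 at day +7 and 1 of 3 at day +14 were 2-fold or more higher in the CD4 gate, where 1.54% and 2.88% of genes were, and Cd74 was that gene both times. None of them was 2-fold lower there (0.832% and 0.806% of genes). Between the days, Cd74 was likewise the 1 of 2 such members 2-fold or more higher at day +14 in the CD8 gate (2.06% of genes) and in the CD4 gate (4.12% of genes), and 0 were 2-fold lower (1.44% and 1.26% of genes). At 9.62 CPM in the CD8 gate at day +7, Cd74 passed the minimum in the comparisons with that value only through the other group. Thinned to 4000 UMIs per cell, Cd74 was found in 8.52% [6.13, 11.5] of CD4-gate and 2.19% [1.83, 2.61] of CD8-gate cells at day +7, and in 15.9% [12.8, 19.4] and 5.88% [5.27, 6.54] at day +14. The thinning left out 102 and 485 shallower cells of the CD8 gate and 13 and 200 of the CD4 gate.

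Within the CD4 gate, Cd74 was uneven. In the 19 cells with a Foxp3 UMI at day +7 it was at 142 CPM [94.3, 205], against 26.3 CPM [21.8, 31.4] in the 452 cells without one, and in the 14 such cells at day +14 it was at 636 CPM [483, 822], against 57.6 CPM [51.1, 64.7] in 690. At day +14, 12 of those 14 cells carried Cd74, while H2-Ab1 was in 2 of them and the C1q genes were at 0. This split was chosen after the values were seen.

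H2-DMa was spread differently from the other members. In the CD8 gate it was at 13.3 CPM [12.5, 14.2], above Cd74, in the first library and at 19.6 CPM [18.6, 20.7], below it, in the second, in UMIs not scaled by length. Of the 767 CD8-gate cells with an H2-DMa UMI at day +7, 657 had exactly 1, and the most in any cell was 5. The variance of its UMIs per cell was 1.24 times the mean at day +7 and 1.21 times at day +14, near the value of 1 that independent single molecules give. For Cd74 the same ratio was 13.1 and 25.6, and single CD8-gate cells held up to 65 and 122 UMIs. The 1% of CD8-gate cells with most UMIs held 16.3% of the H2-DMa UMIs at day +7, but 59.5% of those of Cd74. H2-DMa was also higher in the CD4 gate, at 21.9 and 32.3 CPM, with log2 ratios over CD8 of 0.72 at both days. Its day +14 over day +7 log2 ratio was 0.56 in each of the 2 gates, under the 1.995 to 2.32 of the chains in the CD8 gate.

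H2-DMb1, the other chain of H2-DM, was at 0.235 CPM and 0.739 CPM in the CD8 gate, a log2 ratio of 1.65 [0.81, 2.57]. Ciita gave 5 UMIs there at day +7 and 45 at day +14, or 0.0734 and 0.693 CPM, a log2 ratio of 3.24 [1.91, 4.93]. In the CD4 gate Ciita gave 0 UMIs at day +7, which allows up to 0.620 CPM, and 2 at day +14. The members with fewest UMIs in T cells were thus H2-DMb1 and Ciita.

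The number of UMIs per CD8-gate cell was higher in deeper cells, but not in the same proportion for every gene. In cells with fewer than 20 class II UMIs at day +7, H2-DMa went from 9.17 UMIs per 100 cells [7.68, 10.9] in the shallowest quartile of depth to 24.8 [22.3, 27.5] in the deepest, while in CPM it went from 17.1 to 11.3. Cd74 went from 2.60 to 17.2 UMIs per 100 cells at day +7 and from 7.68 to 46.7 at day +14. In CPM it went the other way from H2-DMa, from 4.85 [3.43, 6.65] to 7.87 [6.92, 8.90] at day +7. At day +14 Cd74 went from 18.7 to 21.3 CPM with overlapping intervals, and H2-DMa from 29.5 to 15.5 CPM. H2-Ab1 went from 2.04 to 2.07 CPM at day +7 and from 4.64 to 6.66 CPM at day +14. The C1q genes, which T cells are not known to express, went from 3.15 to 10.1 and from 2.65 to 13.7 UMIs per 100 cells in the same quartiles. H2-Ab1, from 1.10 to 4.52 and from 1.90 to 14.6, lay below the C1q genes in every quartile except the deepest of day +14. H2-DMa lay above them in every quartile of both libraries, although the gates allow at most 2 C1q UMIs in a CD8-gate cell.

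**Figure D2:**
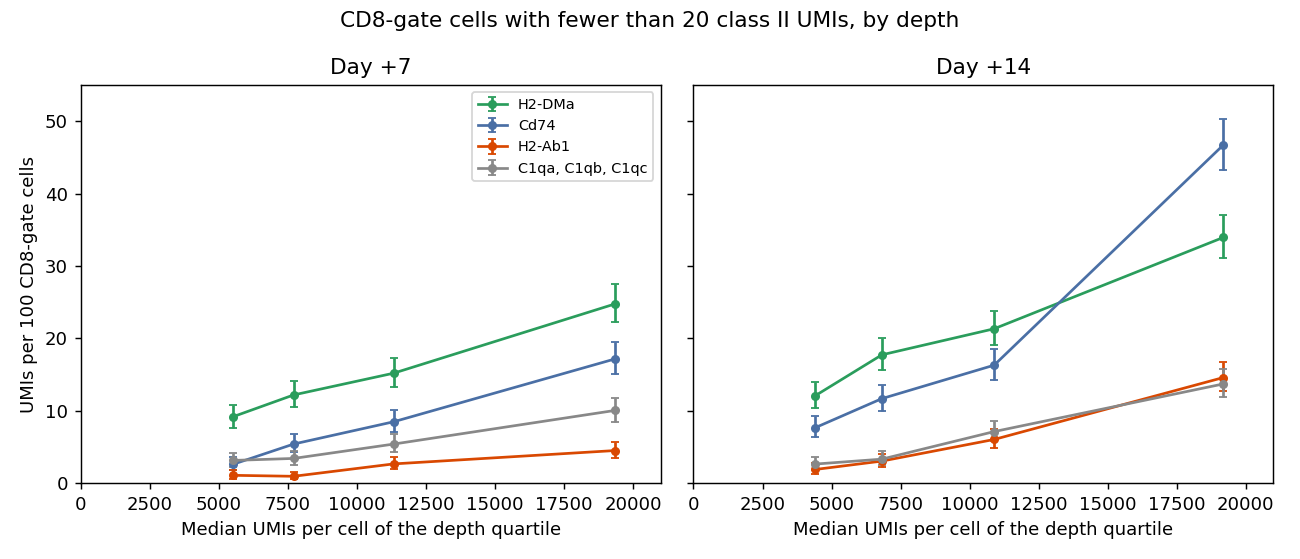
UMIs per 100 CD8-gate cells of H2-DMa, Cd74, H2-Ab1 and the 3 C1q genes together, against the median depth of each depth quartile, at day +7 (left) and day +14 (right), over cells with fewer than 20 class II UMIs; bars are 95% Poisson intervals. Each line is higher in the deepest than in the shallowest quartile, H2-DMa starts at 9.17 and 12.1, and Cd74 passes H2-DMa only in the deepest quartile of day +14.

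No gate in this sort is known to lack class II, and the neutrophil-lineage gate, of 40 and 73 cells with median depths of 15079 and 8453 UMIs, came closest. Thinned to the same depth, Cd74 was found in 7.69% [1.62, 20.9] and 10.2% [3.82, 20.8] of its cells and H2-Ab1 in 5.13% [0.63, 17.3] and 11.9% [4.91, 22.9]. The CD8-gate shares of Cd74, given above at a median depth of 9236 and 8551 UMIs before thinning, and of H2-Ab1, 0.84% and 2.16%, did not exceed these. Given intervals this wide, and class II-high cells within the neutrophil-lineage gate, the CD8-gate shares could not be set apart from background. The H2-DMa share of the CD8 gate, 5.69% [5.11, 6.32] and 7.83% [7.13, 8.58], did not exceed the neutrophil-lineage intervals around 2.56% [0.06, 13.5] and 15.3% [7.22, 27.0] either, nor did the Cd74 share of the CD4 gate exceed those for Cd74. The neutrophil-lineage gate itself held 1 and 6 cells with 20 or more class II UMIs, so it could not serve as a floor for any of these shares. Against the CD8 gate at the same thinning, the Cd74 share of the CD4 gate was higher on both days. The intervals of those shares, given above, did not overlap.

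The proportions of the members differed between gates. Cd74 made up 50% [47.7, 52.3] of the class II UMIs in the C1q-bearing gate at day +7 and 38.8% [37.0, 40.6] at day +14, with H2-DMa at 5.98% [4.93, 7.16] and 3.82% [3.16, 4.58]. In the CD8 gate H2-DMa made up 44.6% [42.4, 46.8] and 23.7% [22.6, 24.9]. The ratio of H2-DMa to Cd74 UMIs was 1.38 [1.25, 1.53] in the CD8 gate and 0.12 [0.10, 0.15] in the C1q-bearing gate at day +7, and 0.62 [0.58, 0.66] and 0.10 [0.08, 0.12] at day +14. The ratio of H2-Ab1 to Cd74 was 0.31 [0.26, 0.36] in the CD8 gate and 0.31 [0.27, 0.36] in the C1q-bearing gate at day +7, and 0.37 [0.34, 0.40] and 0.43 [0.38, 0.47] at day +14. In the CD4 gate it was only 0.17 [0.10, 0.26] and 0.14 [0.10, 0.19]. Over the whole gates, H2-Ab1 and Cd74 thus stood in nearly the same ratio in CD8-gate and C1q-bearing cells, and CD4-gate cells held more Cd74 per H2-Ab1. In cells with fewer than 20 class II UMIs the 2 gates lay further apart. There H2-Ab1 and Cd74 gave 135 and 492 UMIs in the CD8 gate at day +7, and 377 and 1213 at day +14. In the C1q-bearing gate they gave 118 and 379, then 121 and 298. Over the whole gates, H2-DMa did not keep its ratio, and at day +14 neither did the other chains. The ratio of H2-Aa to H2-Ab1 was then 0.67 [0.60, 0.75] in the CD8 gate and 1.14 [1.01, 1.29] in the C1q-bearing gate. That of H2-Eb1 to H2-Ab1 was 0.88 [0.79, 0.97] and 1.19 [1.05, 1.35]. At day +7 these intervals overlapped, around 0.54 and 0.71 and around 0.70 and 0.95.

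**Figure D3:**
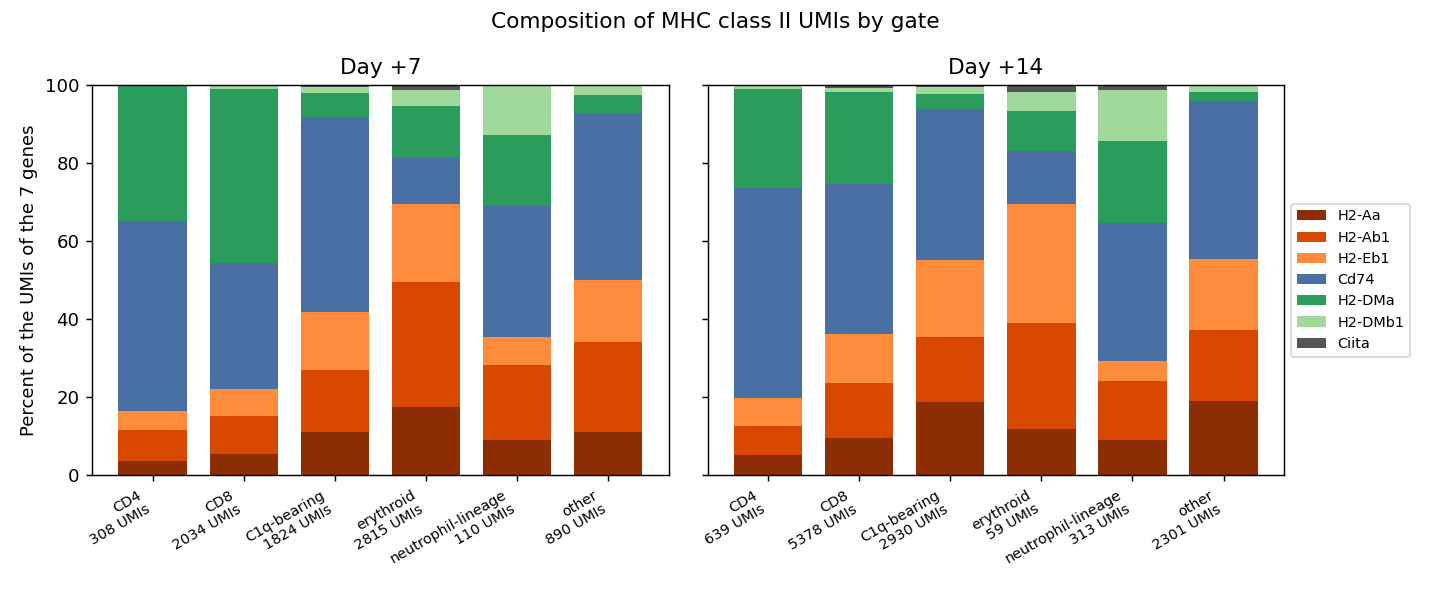
Percent of the class II UMIs of a gate that belong to each of the 7 genes, for 6 gates at day +7 (left) and day +14 (right), with the number of UMIs under each bar; every bar adds up to 100. The H2-DMa segment fills 44.6% of the CD8 bar and 5.98% of the C1q-bearing bar at day +7, and the erythroid bars are the only ones with Cd74 under 15%.

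Most C1q-bearing barcodes also held T cell transcripts, and class II was higher in those that did not. In the 32 and 17 C1q-bearing cells with fewer than 2 T cell receptor complex UMIs, the summed level was 4823 CPM [4468, 5198] at day +7 and 15255 CPM [14035, 16553] at day +14. In the 143 and 115 cells with 20 or more such UMIs it was 396 CPM [373, 420] and 1123 CPM [1077, 1169]. Over the whole gate, H2-Aa differed most between the days of the 6 members with a mean of at least 10 CPM, from 67.7 to 263 CPM, a log2 ratio of 1.96 [1.72, 2.20]. H2-Eb1 had 1.59 [1.38, 1.81], H2-Ab1 1.27 [1.05, 1.48] and H2-DMb1 1.23 [0.56, 1.93], while Cd74 had 0.83 [0.70, 0.96] and H2-DMa 0.55 [0.16, 0.95]. Thus 4 of those 6 were 2-fold or more higher at day +14, where 5.14% of genes were, and 0 were 2-fold lower, where 2.3% were. Thinned to 4000 UMIs per cell, H2-Aa alone kept this size, from 111 to 265 CPM, while H2-Ab1 went from 142 to 217, H2-Eb1 from 166 to 246 and H2-DMb1 from 17.5 to 26.3 CPM. Of the 2930 class II UMIs of this gate at day +14, 1 cell held 478 and another 265, while the most in any of its cells at day +7 was 71. The ratios without these cells were not computed. Against the CD8 gate, 2.83% and 1.73% of genes were 2-fold or more higher and 0.0444% and 0.0418% were 2-fold lower. Most members passed the minimum there only through the C1q-bearing gate, so their count is not given. H2-DMa, which passed it in both gates, had log2 ratios of 1.45 [1.15, 1.74] and 1.44 [1.15, 1.72].

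The erythroid gate at day +7 held class II in nearly every cell. A UMI of the 7 genes was found in 96.6% [91.6, 99.1] of the 119 cells, and in 81.5% [72.9, 88.3] of the 108 cells deep enough to be thinned to 4000 UMIs. The lowest cell had 0 class II UMIs, the median cell 16 and the highest 105. H2-Ab1 was highest, at 233 CPM [218, 248], followed by H2-Eb1 at 145 CPM [134, 158], H2-Aa at 126 CPM [115, 138], H2-DMa at 97.1 CPM [87.6, 107] and Cd74 at 85.3 CPM [76.3, 95.0]. Ciita reached 8.50 CPM [5.85, 11.9] and was found in 19.3% of the cells. It gave 33 UMIs there, of the 50 in the whole day +7 library. The gate thus held both chains of I-A, the I-E β chain, both chains of H2-DM and the coactivator, in an order unlike that of the C1q-bearing gate: H2-Ab1 outnumbered Cd74 by 2.73 [2.40, 3.10] to 1, against 0.31 there.

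Between the erythroid and the CD8 gate, 17.3% of genes at day +7 and 16.8% at day +14 were 2-fold or more higher in the erythroid gate, and 14.6% and 18.9% were 2-fold lower. Of the 6 members over the minimum at day +7, H2-DMa alone passed 10 CPM in the CD8 gate too, at a log2 ratio of 2.87 [2.69, 3.04], and the others entered only through the erythroid gate, so their count is not given. The log2 ratios at day +7 were 6.30 [6.08, 6.53] for H2-Ab1 and 3.15 [2.95, 3.34] for Cd74. Markers of the usual class II-bearing cells were mixed in the gate, which by the order of the gates held no cell with 3 or more C1q UMIs. The 7 B cell genes were at 5.93 CPM, against 23.3 CPM in the CD8 gate, and 22 of their 23 UMIs were of Cd79b. The 8 conventional dendritic cell genes were at 12.1 CPM, against 35.5 CPM, but this order rested on Itgax, at 3.35 against 32.0 CPM. Zbtb46 of the same list went the other way, with 34 UMIs or 8.76 CPM [6.07, 12.2] against 0.529 CPM [0.370, 0.732]. The 10 other macrophage genes were at 32.7 CPM, against 29.05 CPM in the CD8 gate, and 92 of their 127 UMIs were of Slc40a1, the iron exporter that erythroid cells also express. The defining B cell genes Cd79a, Ms4a1 and Pax5 were at 0 UMIs, as were Flt3, Xcr1 and Clec9a of dendritic cells and Mertk, Cd5l and Fcgr1 of macrophages. Csf1r and Adgre1 gave 1 UMI each. Other macrophage genes were present, with 18 UMIs of Cd68, 7 of Vcam1 and 4 each of Spic and Hmox1. Vcam1 was at 1.80 CPM [0.725, 3.72] against 0.734 CPM [0.545, 0.968] in the CD8 gate. Cd68, at 4.64 against 15.4 CPM, and Hmox1, at 1.03 against 10.4 CPM, were lower, and Spic was at 1.03 against 1.07 CPM. The 7 monocyte genes were at 89.1 CPM, against 601 CPM in the CD8 gate. The 5 gate genes were at 3713 CPM, and Kit, Gata1, Epor and Tfrc, genes of erythroid progenitors added after the values were seen, at 364 CPM together, against 15.4 CPM in the CD8 gate. Hemoglobin transcripts were at 374 CPM. In the 86 cells with at most 2 T cell receptor complex UMIs the class II level was 798 CPM [762, 835], and it was 503 CPM [462, 547] in the 24 cells with 20 or more. The level was therefore as high without the barcodes that also held T cell transcripts. The part of any other cell type in it was not tested.

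The 21 erythroid-gate cells of day +14 were another kind of sample, with a median depth of 4039 UMIs against 34132 and hemoglobin transcripts at 19489 CPM. They gave 59 class II UMIs in all, and the log2 ratio of day +14 over day +7 was -0.95 [-1.35, -0.58]. Of 6 members over the minimum, 3 were 2-fold or more lower, H2-Aa, H2-Ab1 and H2-DMa, where 10.3% of genes were, and 0 were 2-fold or more higher, where 14.3% of genes were. H2-Ab1 again gave more UMIs than Cd74, 16 against 8.

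**Figure D4:**
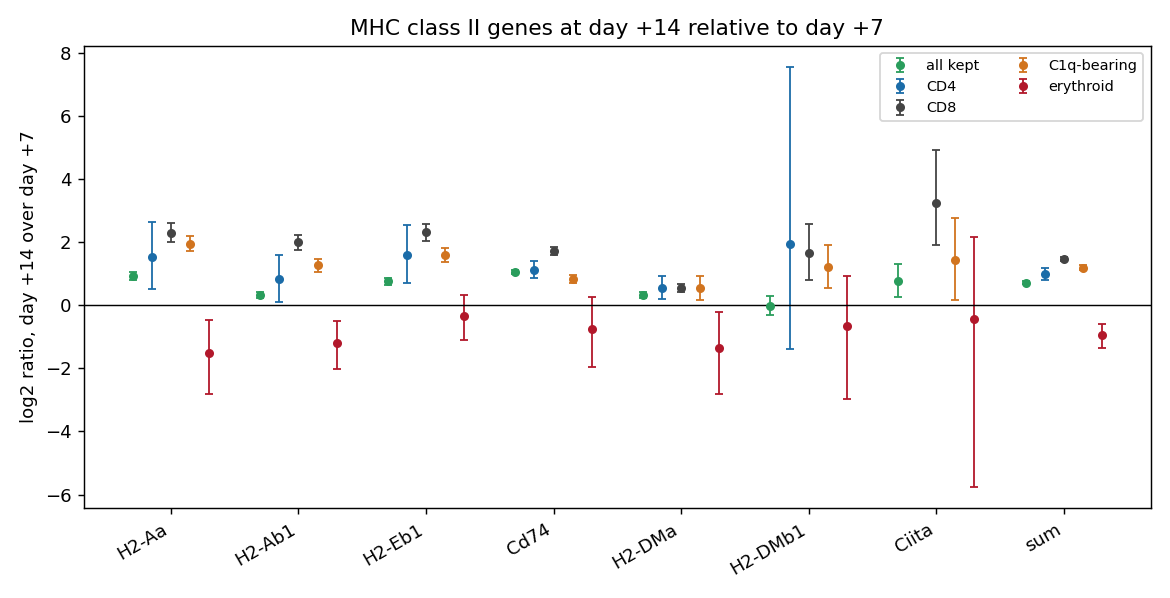
Log2 ratio of CPM at day +14 over day +7 for each gene and for their sum, over all kept cells and in 4 gates; bars are 95% intervals, the line marks 0, and Ciita in the CD4 gate is left out because it had 0 UMIs at day +7. The sum lies above 0 in all kept cells, CD4, CD8 and C1q-bearing cells and at -0.95 in the erythroid gate.

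Cells with many class II UMIs were then counted. At least 20 UMIs of the 7 genes were found in 94 cells at day +7, or 1.31% of the kept cells, and in 93 at day +14, or 1.19%. They held 56.4% and 54.7% of all class II UMIs. Within 5 UMIs of this limit lay 10 and 14 cells above and 29 and 33 below it. The count is of UMIs and not of shares, so deep cells pass it more readily. By comparison, 1015 and 1592 cells held exactly 1 class II UMI.

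The gates of these cells changed between the libraries. At day +7, 51 of the 94 were in the erythroid gate, 28 in the C1q-bearing gate, 7 had none of the gate markers, 5 were in the CD8 gate, 2 in the CD4 gate and 1 in the neutrophil-lineage gate. At day +14, 32 of the 93 were C1q-bearing, 23 had no gate marker, 22 were in the CD8 gate, 6 were neutrophil-lineage, 4 had both coreceptors, 3 were in the CD4 gate, 2 had neither coreceptor and 1 was erythroid. The 28 C1q-bearing cells of day +7 all had 10 or more UMIs of the 10 macrophage genes outside C1q, and 13 of them had 10 or more T cell receptor complex UMIs. At day +14, 16 of the 32 C1q-bearing cells had 10 or more macrophage UMIs and 21 had 10 or more T cell receptor complex UMIs.

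**Figure D5:**
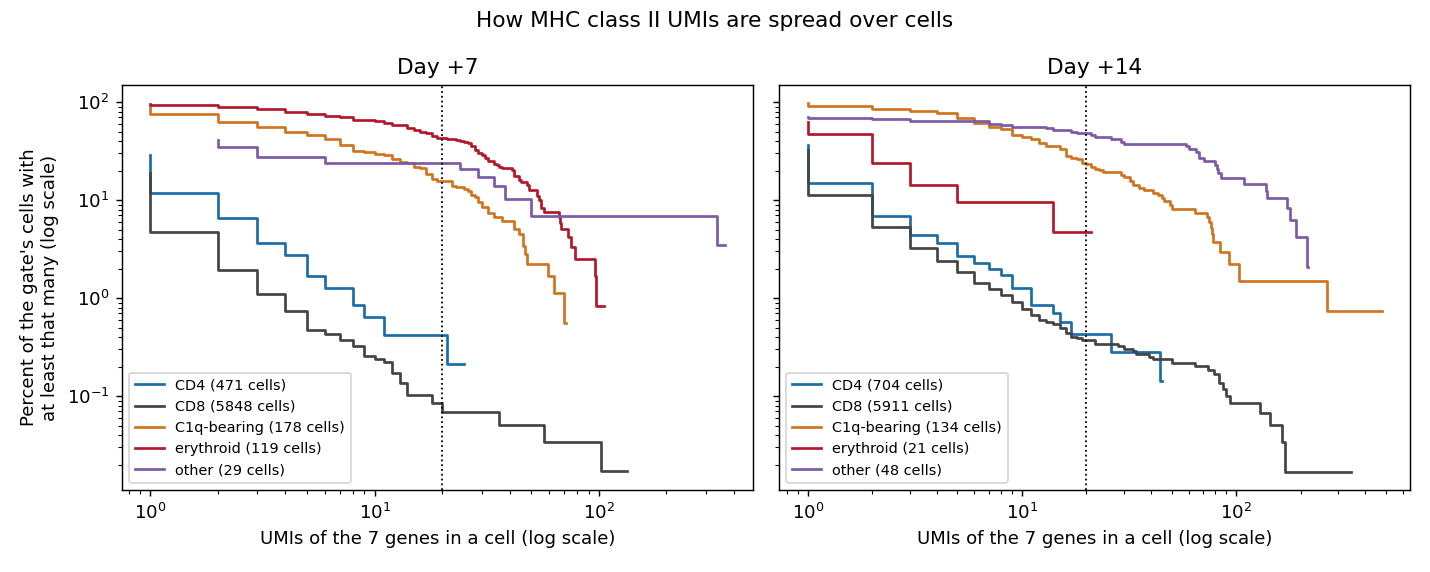
Percent of the cells of a gate with at least a given number of class II UMIs, both axes on a log scale, at day +7 (left) and day +14 (right); the dotted line marks 20 UMIs and the last step of each line is the cell with most. At day +7, 42.9% of erythroid-gate and 0.0855% of CD8-gate cells lie at or beyond the line, and at day +14 the CD8 line runs out to 344 UMIs.

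The 22 class II-high cells of the CD8 gate at day +14 held 35.3% of the class II UMIs of that gate, and the 5 at day +7 held 17.2%. Of the 22, 20 had 10 or more T cell receptor complex UMIs and 9 had 3 or more UMIs of the dendritic cell genes. The dendritic cell genes were at 168 CPM in them and 14.5 CPM in the rest of the gate, the monocyte genes at 938 and 475 CPM, and the plasma cell genes, among which 1 cell held 389 UMIs, at 1293 and 70.0 CPM. The B cell genes were at 77.9 and 3.62 CPM and the macrophage genes outside C1q at 146 and 24.8 CPM. These 2 lists reached 3 UMIs in only 2 and 3 of the 22 cells. Whether these barcodes held 2 cells was not tested. Without the class II-high cells, the CD8 gate was at 24.8 and 53.8 CPM, a log2 ratio of 1.12 [1.03, 1.20] in place of 1.47 [1.40, 1.55]. In the remaining cells H2-Aa, H2-Ab1 and H2-Eb1 had log2 ratios of 2.14 [1.72, 2.57], 1.55 [1.27, 1.85] and 1.85 [1.51, 2.20].

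Further class II-high cells had none of the gate markers. The 7 at day +7 held 874 UMIs and the 23 at day +14 held 2202, although the latter had a median depth of only 2161 UMIs. At day +7 the monocyte genes were at 13267 CPM in them, with a median of 8 and a maximum of 404 UMIs per cell, against 905 CPM in the other cells without gate markers. At day +14 the order was the other way, 7043 against 9606 CPM. In that library, 7 of the 23 had 3 or more UMIs of the dendritic cell genes, 5 of the monocyte genes, 3 of the plasma cell genes and 1 of the B cell genes, while 11 had 3 UMIs of none of the 10 marker lists. One cell held 386 plasma cell gene UMIs, which alone raised that list to 4576 CPM. The 48 cells without gate markers gave 929 of the 5226 Cd74 UMIs of day +14.

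The C1q genes together differed less between the days in the CD8 gate than class II, at 4.73 CPM [4.23, 5.27] and 6.15 CPM [5.56, 6.78]. Among them C1qa was level, at 2.34 and 2.31 CPM, while C1qb was at 1.47 and 2.16 CPM and C1qc at 0.925 and 1.68 CPM. The log2 ratio of the class II sum there was 1.47. In the 5580 and 5581 CD8-gate cells without a C1q UMI the summed class II level was 28.6 and 78.7 CPM, close to that of the whole gate, and in the 268 and 330 cells with 1 or 2 C1q UMIs it was 49.4 and 127 CPM. The part of these transcripts in the difference between the days was not tested beyond these values.

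Other genes of the class II pathway were then compared between the days. Of the chains outside the 7 genes, H2-Oa, a chain of the H2-DO inhibitor of H2-DM, had 7.49 and then 3.87 CPM, a log2 ratio of -0.95 [-1.15, -0.76], and H2-Ob, H2-Eb2 and H2-DMb2 gave 8 to 25 UMIs at day +14. H2-Oa was at 8.21 CPM in the CD8 gate at day +7, above H2-Ab1, and carries the promoter pair described above. Of 6 genes for proteases and a reductase that process antigen or the invariant chain, 4 had a mean of at least 10 CPM and 0 were 2-fold different, 3 being higher and 1 lower at day +14, where 5063 of all 6919 genes were higher. Cathepsin S (Ctss), which cleaves the invariant chain, was at 41.6 and 68.1 CPM, with 148 and 156 CPM in the C1q-bearing gate and 3.35 CPM in the erythroid gate at day +7. The erythroid cells therefore held class II chains with little Ctss, whereas Ctsl was at 30.9 CPM in them and 4.88 CPM in the CD8 gate.

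None of the 5 promoter complex genes over the minimum, or of the 7 genes from interferon-γ to Ciita over it, was 2-fold different between the days. The median log2 ratios of these lists were 0.19 and 0.18, equal or close to the 0.18 of all genes. Rfx5 was at 3.20 and 5.38 CPM and Rfxap at 56.2 and 51.4 CPM. Irf1, which acts on the Ciita gene, had a log2 ratio of 0.51 [0.46, 0.56]. In the erythroid gate of day +7, Irf1 was at 83.2 CPM, against 60.9 CPM in the CD8 gate, while Ifng was at 21.1 CPM against 175 CPM. Among the genes of class II surface turnover, Cd82 alone passed the minimum, with a log2 ratio of 0.71. Cd83, which protects class II from removal by March1, was at 0.576 and 2.68 CPM, a log2 ratio of 2.22 [1.77, 2.69] under the minimum. The ligases that remove class II differed less: March1 was at 0.76 and 0.56 CPM and March8 at 1.52 and 1.40 CPM, and March8 was at 14.4 CPM in the erythroid gate of day +7.

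The genes whose level over cells was most like that of the 7 genes included several known from myeloid cells, such as Aif1, Mpeg1 and Tyrobp. Among 10351 genes with at least 100 UMIs in each library, the 10 outside the lists used here with the highest correlation of ln(1 + UMIs per 10000) with the class II sum, taken at the lower of the 2 libraries, were Aif1, Mpeg1, Tyrobp, Cd300c2, Pld4, Ctsh, Wfdc17, Ly86, Apoe and Marcks. Pearson's r over the 7179 and 7794 cells was 0.487 and 0.495 for Aif1, 0.43 and 0.41 for Mpeg1 and 0.37 and 0.38 for Tyrobp, and 0.32 and 0.30 for Marcks. These values describe cells of 1 library that share depth and free RNA, and nearly all of the cells held 0 of these transcripts.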

How the data were processed

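Deposited UMI counts per gene and cell were used as the authors made them, without normalization, for the barcodes that passed cell detection. The submitters' processing notes name Cell Ranger 6.1.2 and the mm10 build, which is GRCm38. The gene and barcode lists hold no measurement. Barcodes with 500 to 7500 detected genes and at most 15% mitochondrial UMIs were kept, which left out 176 at day +7 and 249 at day +14. No doublet caller was run, so doublets remain.

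Gates were applied in the order C1q-bearing (3 UMIs of the C1q genes), erythroid (10 UMIs), neutrophil-lineage (20 UMIs of Ngp, Camp, Ltf, Elane, Mpo and Prtn3) and then, with 2 T cell receptor complex UMIs, CD4 and CD8 by a coreceptor UMI. CPM are UMIs per 1000000 UMIs of the gate. Intervals, at 95%, are exact Poisson for levels and Clopper-Pearson, which is exact, for shares and for ratios of UMIs, and cover counting error only, as the mice behind each pooled library were not separated. A call is a 2-fold difference in a gene with a mean of 10 CPM. A count of 0 allows 3 counts, or 0.0346 and 0.0358 CPM over a whole library. Cells were thinned to 4000 UMIs with a fixed seed.

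The members, gates and lists were chosen with earlier results of these data known. The genes named are the 7 members, the pathway lists, the gate markers and the 10 most correlated genes; Foxp3, Kit, Gata1, Epor and Tfrc were added with their values in view, as were 4 alternatives. The calculation was tested on simulated Poisson counts for the comparison of the days over all kept cells, where 200 of 200 changed genes among 6919 took the right direction and 95.1% of intervals held the true value. Poisson counts follow the model behind the intervals, so this checks the calculation and not the spread of real cells. The summed UMIs of the 7 genes per kept cell had a variance of 56.9 and 80.1 times the mean at day +7 and day +14. Python 3.11.15 was used with numpy, scipy and pandas. Other scalings, filters, gate limits, class II-high limits and thinning were tried as alternatives. GENCODE M21 gave positions and RefSeq gave promoters. Promoters of H2-Ab1, Cd74 and Ciita were not used here, and single values of some list genes are not reported here.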

Additional observations from a re-analysis of the deposited data

Results flagged for a closer look

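The summed level of the 7 genes differed between the days in opposite directions by gate: the log2 ratio of day +14 over day +7 was -0.95 in the erythroid gate and above 0 in the CD4, CD8 and C1q-bearing gates. This difference between the gates was not tested, and the erythroid gate of day +14 rests on 21 cells.

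Barcodes with fewer than 500 genes, which no comparison above used, also held class II. The 134 such barcodes of day +7 were at 1037 CPM and the 133 of day +14 at 6107 CPM, from 125 and 614 UMIs. The C1q genes were at 1776 and 2437 CPM in the same barcodes, and Cd74 gave 70 and 240 UMIs.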

How the results depend on the processing

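No difference between the days in the summed level, by gate or over all kept cells, turned its direction, but the order of the C1q-bearing and erythroid gates at day +7 did, as the values below show. H2-DMb1, at -0.01 over all kept cells, ranged from -0.22 with median-ratio scaling to 1.30 without C1q-bearing, erythroid and neutrophil-lineage cells. No paired analysis was possible because each day has 1 library and no test was made. The log2 ratio of day +14 over day +7 for the 7 genes together, 0.72 as reported, was 0.51 with median-ratio scaling, 1.59 as a mean of per-cell CPM, 0.77 with a mitochondrial limit of 5%, 0.76 with no filter on barcodes, 1.46 without C1q-bearing, erythroid and neutrophil-lineage cells, 1.25 without the 5% of cells with most UMIs and, chosen after seeing the data, 0.62 without the class II-high cells that had no gate marker. Levels by gate follow in CPM, day +7 before day +14. Without cells of 20 or more class II UMIs, the CD4 gate was at 54.7 and 105 and the CD8 gate at 24.8 and 53.8. With 2 coreceptor UMIs required, day +14 gave 109.7 for CD4 and 78.8 for CD8. Thinned to 4000 UMIs, CD4 was at 150.3 at day +14, CD8 at 28.2 and 91.4, C1q-bearing at 933 and 1318 and erythroid at 689.8 and 182. With a C1q limit of 1 UMI, CD8 was at 28.6 and 78.7 and C1q-bearing at 289 and 454; with 10 UMIs, CD8 was at 32.9 and 91.7, C1q-bearing at 1636 and 5289 and erythroid, at day +7, at 669. Without the 5% of cells with most UMIs, CD8 was at 27.9 and 86.2, C1q-bearing at 873 and 1786 and erythroid, at day +7, at 779. With the mitochondrial limit of 5%, CD8 was at 79.6 at day +14 and C1q-bearing at 525 at day +7. An erythroid limit of 5 UMIs gave 673 at day +7. Of the alternatives chosen after seeing the data, CD8 cells without a C1q UMI were at 28.6 and 78.7, C1q-bearing cells with fewer than 2 T cell receptor UMIs at 4823 and 15255, and erythroid cells with at most 2 at 798 and 584.

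Class II-high cells numbered 161 and 180 at a limit of 10 UMIs, 26 and 50 at 50, 5 and 19 at 100, and 57 and 60 when H2-Aa, H2-Ab1 and H2-Eb1 alone were counted. In cells with fewer than 20 class II UMIs, Cd74 made up 29.2% and 34.9% of the class II UMIs of the CD8 gate and 8.78% of those of the erythroid gate at day +7. Without a minimum level, 2178 genes were 2-fold or more higher and 1242 lower at day +14, against 146 and 96 with it. The other 31 values of this kind moved by less than their counting interval, and 37 of 58 values of single genes or gene counts moved by more. The cause of these shifts was not tested. Depth limits what thinning could use: 39 of the 48 day +14 cells without gate markers and 10 of the 21 erythroid cells were too shallow.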
